A study of Rattus norvegicus with 60 samples.

Results

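Osteopontin and the genes that mark scar-associated macrophages were followed in rat lung after inhalation of MWCNT, multi-walled carbon nanotubes, which are fibre-shaped carbon particles. The 9 genes Spp1, Mmp12, Ctsk, Gpnmb, Trem2, Lgals3, Fabp5, Atp6v0d2 and Cd9 were taken by symbol, 9 of the 30045 rows of the count table, and all 9 passed the filter that left 15995 genes. They had been chosen by the measured difference between exposed and air lungs in these data, and Spp1 was selected on the steepness of its change with dose. Those differences are therefore given as a description, and no p-value is printed for them. Where the text says that such a difference passed a threshold or was called, that is a description too. Male Fischer 344 rats (F344/DuCrl) of about 3 months, housed 3 to a cage, breathed MWCNT or filtered air in whole-body chambers for 6 hours a day on 3 days, and a piece of lung was taken 1 day after the end. A separate run was made for each cumulative dose, with 6 MWCNT rats and 6 air rats of its own in each run. The MWCNT groups received 11.25, 22.5, 45, 90 or 180 mg/m3 and are called MWCNT_011, MWCNT_022, MWCNT_045, MWCNT_090 and MWCNT_180, and their controls air_011, air_022, air_045, air_090 and air_180. The labels give 6 rats and 6 libraries a group, so each library was taken as 1 rat, and the p-values given for other genes measure the spread between rats. Dose and run cannot be told apart when effects of different doses are set side by side.

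The submitters marked 7 of the 60 libraries as outliers, and these were left out of every comparison. The 53 others comprised 5, 6, 6, 4 and 5 MWCNT libraries from the lowest to the highest dose, and 6, 6, 3, 6 and 6 air libraries of the same runs. They held 8.1 to 16.2 counts each in units of 1000000. All were lung by their markers, with at least 7990 CPM (counts per 1000000) of the alveolar type 2 gene Sftpc, 2090 CPM of the alveolar type 1 gene Ager and 3140 CPM of the club cell gene Scgb1a1, and the liver genes took at most 0.0604% of the counts.

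Osteopontin, the product of Spp1, is a secreted phosphoprotein that binds integrins and CD44 and attracts and retains macrophages at sites of injury. In human and mouse fibrotic organs, macrophages with high SPP1, TREM2, CD9, GPNMB and FABP5 have been described as scar-associated or lipid-associated macrophages, and they lie beside matrix-producing fibroblasts. The set joins that secreted signal to the matrix-degrading enzymes Mmp12 and Ctsk, the lysosomal genes Gpnmb and Atp6v0d2, the lipid receptor Trem2, the lipid carrier Fabp5, the galectin Lgals3 and the tetraspanin Cd9. Several of these genes are also used by osteoclasts and by resident alveolar macrophages, and Cd9 is made by many lung cell types. In whole lung, fewer cells of a type and less RNA per cell cannot be told apart.

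Promoters of 6 of the 9 genes were found in the RefSeq table of build GRCr8, as windows from 250 bases before to 50 after a gene start. Of these, 3 are printed: the steepest gene of the set, its nearest partner and a gene that barely moved. The window of Spp1 lies at chr14:5619755-5620054 on the minus strand, that of Mmp12 at chr8:12866402-12866701 and that of Gpnmb at chr4:79340878-79341177, both on the plus strand. For Mmp12 and Gpnmb the start used is the start of the gene's span. The Spp1 gene spans chr14:5613569-5620695, so its printed window lies wholly inside the gene. For Cd9 and Trem2, also on the minus strand, the start used likewise lies inside the span. Distances count from the start used for each window. Capitals mark matches to a motif listed in the next paragraph.
Spp1: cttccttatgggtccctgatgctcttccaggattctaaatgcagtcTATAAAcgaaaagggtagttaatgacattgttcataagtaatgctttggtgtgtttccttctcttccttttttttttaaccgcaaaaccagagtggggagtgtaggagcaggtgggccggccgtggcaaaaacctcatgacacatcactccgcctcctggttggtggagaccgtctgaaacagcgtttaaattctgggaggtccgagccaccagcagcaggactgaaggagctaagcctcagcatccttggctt
Mmp12: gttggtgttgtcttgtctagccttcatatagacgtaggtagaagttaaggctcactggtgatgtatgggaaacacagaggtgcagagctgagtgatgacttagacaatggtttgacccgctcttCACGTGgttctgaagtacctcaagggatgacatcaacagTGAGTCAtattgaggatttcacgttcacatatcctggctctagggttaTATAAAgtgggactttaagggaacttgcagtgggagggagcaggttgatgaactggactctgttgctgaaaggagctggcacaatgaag
Gpnmb: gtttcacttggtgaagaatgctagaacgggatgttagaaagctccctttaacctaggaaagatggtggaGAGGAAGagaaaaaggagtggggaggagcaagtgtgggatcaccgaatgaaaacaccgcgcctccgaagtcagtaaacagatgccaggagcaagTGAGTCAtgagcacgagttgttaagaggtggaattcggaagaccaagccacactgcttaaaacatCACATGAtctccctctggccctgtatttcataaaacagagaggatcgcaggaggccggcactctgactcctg

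Motifs were searched on both strands, and the share of all 33469 promoters in the table that hold each is given beside the count. The AP-1 letters TGANTCA stood in 3 of the 6 promoters, against 7.33% of all promoters, and in both Mmp12 and Gpnmb the match TGAGTCA began 87 bases before the gene start. Trem2 held the variant TGAATCA 3 bases before the start used for its window, inside the gene's span. The PU.1 core GAGGAAG, of a factor of the macrophage lineage, stood in 4 of 6 (Cd9, Ctsk, Gpnmb and Trem2), against 12.4% of all. The MITF letters TCATGTG stood in Ctsk and Gpnmb, against 3.56%, and the E-box core CACGTG of the lysosomal gene network in Mmp12 alone, against 6.42%. TATAAA was found in Mmp12, 39 bases before the gene start, and in Spp1, against 14.2%. In Spp1 it began 204 bases before the start used for its window, inside the gene's span. The extended lysosomal motif TCACGTGA, which contains CACGTG, and a NF-kB motif stood in 0 of 6, against 0.777% and 1.53%. These matches describe letters in a short window and are not shown to be bound.

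The mean Spp1 level of the exposed rats was higher in each run of higher dose, and from 45 mg/m3 on its log2 fold change over air was the largest of the set, while at 22.5 mg/m3 that of Atp6v0d2 was larger. At 180 mg/m3 it had 135, 94.3, 107, 88.5 and 101.96 CPM in MWCNT rats, against a lowest of 2.01, a median of 4.2 and a highest of 8.35 CPM in the 6 air rats. The lowest exposed lung lay far above the highest air lung. The means were 105 ± 18.1 CPM in MWCNT_180 (SD, n = 5) and 4.38 ± 2.27 CPM in air_180 (n = 6), a fitted 23.9-fold difference (log2 4.58, SE 0.41). At 90 mg/m3 the MWCNT rats had 58.4, 74.8, 76.3 and 73.9 CPM, and the air rats had a lowest of 4.24, a median of 5.86 and a highest of 16 CPM. The groups again stood apart, with a log2 fold change of 3.22 (SE 0.39).

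At 45 mg/m3 Spp1 ran from 16 to 31.6 CPM with a median of 23.9 in the 6 MWCNT rats. The 3 analysed air rats had 9.8, 10.4 and 4.51 CPM, without overlap, and the log2 fold change was 1.45 (SE 0.47). An air library left out as an outlier, air_045 replicate 6, had 21.5 CPM, inside the MWCNT range. Replicates 3 and 5 of air_045, also left out, had 15.8 and 0.494 CPM, below that range. At 22.5 mg/m3 Spp1 ran from 12.3 to 30.7 CPM with a median of 18 in MWCNT rats, against 2.26 to 26 CPM with a median of 9.11 in air rats. These groups overlapped, and the log2 fold change was 0.80 (SE 0.36). At 11.25 mg/m3 the MWCNT rats had 8.11, 2.98, 4.87, 8.72 and 10.8 CPM, of which 1 lay below the air range of 3.46 to 16.3 CPM and the others within it, and the log2 fold change was -0.21 (SE 0.43). Set in order, the MWCNT means of 7.1, 19.2, 23, 70.8 and 105 CPM rank with the dose. The ranges of MWCNT_022 and MWCNT_045 overlap, while every other pair of neighbouring doses does not. Across the 5 runs the log2 fold change grew by 1.20 (SE 0.13) per doubling of dose, rank 3 of 15995 genes and rank 2 of the 14727 that averaged 1 CPM or more, the property for which Spp1 had been picked.

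**Figure D1:**
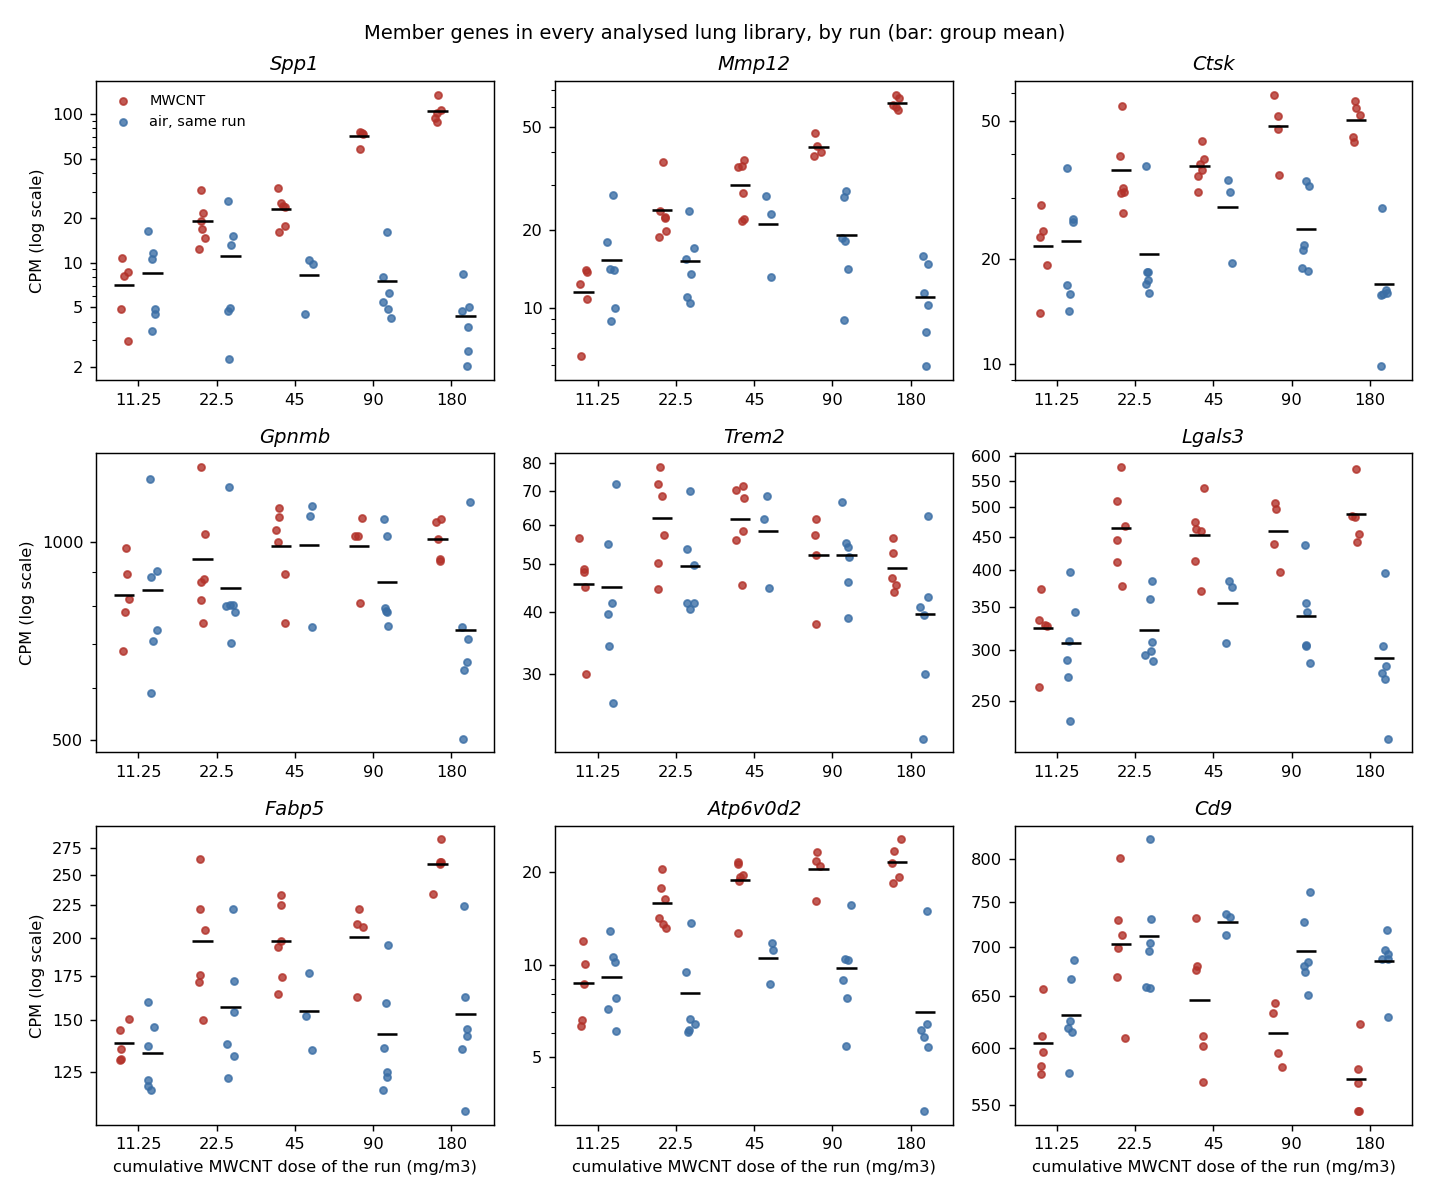
Levels of the 9 genes in the 53 lung libraries. The x axis gives the cumulative MWCNT dose of each run in mg/m3 and the y axis CPM on a log scale that differs between panels. Each point is 1 rat, with MWCNT rats in red to the left of the air rats of the same run in blue, and the bar is the group mean. Spp1 means climb from 7.1 CPM at the lowest to 105 CPM at the highest dose while air means stay between 4.38 and 11.1 CPM.

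Mmp12, the macrophage elastase, came next in the set at 180 mg/m3. It had 66.9, 61, 58.1, 59.9 and 65.1 CPM in MWCNT_180 rats, against a lowest of 5.92, a median of 10.8 and a highest of 15.8 CPM in air_180 rats. The exposed lungs sat close together and far above the air lungs, 5.62-fold by the fit (log2 2.49, SE 0.26). At 90 mg/m3 it had 38.7, 40, 47.5 and 42.3 CPM in MWCNT rats, against 8.92 to 28.4 CPM with a median of 18.4 in air rats (log2 1.10, SE 0.26), with no overlap. The log2 fold change was -0.39 (SE 0.27) at 11.25, 0.66 (SE 0.24) at 22.5 and 0.48 (SE 0.29) at 45 mg/m3, and in those runs the groups overlapped. In the last step, from 90 to 180 mg/m3, the log2 difference grew by 1.39 (SE 0.37) in Mmp12 and by 1.36 (SE 0.57) in Spp1. Between 45 and 90 mg/m3 it grew by 0.63 (SE 0.39) in Mmp12 and by 1.78 (SE 0.61) in Spp1, and the difference between these genes was not tested.

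Ctsk encodes cathepsin K, a collagen-cleaving cysteine protease best known from osteoclasts. It had 54.2, 44.9, 51.9, 57 and 43.5 CPM in MWCNT_180 rats, against a lowest of 9.84, a median of 15.9 and a highest of 28 CPM in air_180 rats (log2 1.56, SE 0.23). Every exposed lung exceeded every air lung at 180 and 90 mg/m3, where the log2 fold change was 0.96 (SE 0.24). Atp6v0d2 encodes a d2 subunit of the vacuolar proton pump that osteoclasts and macrophages use and that serves cell fusion in mouse. It had 21.4, 18.4, 23.4, 25.5 and 19.3 CPM in MWCNT_180 rats, against a lowest of 3.34, a median of 5.97 and a highest of 15 CPM in air_180 rats (log2 1.61, SE 0.24).

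Both of these genes already had a higher fitted level at 22.5 mg/m3, although the groups overlapped. Of the 6 exposed rats there, 4 lay above every air rat for Atp6v0d2 and 2 for Ctsk. Ctsk passed the adjusted p threshold of 0.05 at that dose, but not in 2 of 9 other settings and 4 of 53 fits that left out a library. Atp6v0d2 passed it too, except in 1 of the 9 settings. The Ctsk groups also overlapped at 45 mg/m3. Atp6v0d2 had a log2 fold change of 0.98, 0.81 and 1.03 at 22.5, 45 and 90 mg/m3 (SE 0.23 to 0.28). All 6 MWCNT_045 rats, with 12.7 to 21.5 CPM, lay above the 3 analysed air_045 rats. Replicate 3 of air_045, left out as an outlier, had 18.9 CPM, inside that range. Replicates 5 and 6, also left out, had 0 and 11.4 CPM, below it. For Ctsk the log2 fold change was 0.79, 0.36 and 0.96 at the same doses (SE 0.22 to 0.27). For the step from 11.25 to 22.5 mg/m3 the log2 differences grew by 1.02 (SE 0.34) in Atp6v0d2 and 0.81 (SE 0.33) in Ctsk. The next steps, to 45 and to 90 mg/m3, changed them by -0.17 (SE 0.36) and 0.22 (SE 0.37) in Atp6v0d2, each smaller than its standard error, and by -0.43 (SE 0.35) and 0.59 (SE 0.36) in Ctsk.

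Lgals3, which encodes the glycan-binding macrophage product galectin-3, and Fabp5, a carrier of fatty acids, differed less. Lgals3 had 573, 455, 484, 483 and 442 CPM in MWCNT_180 rats, against a lowest of 218, a median of 280 and a highest of 396 CPM in air_180 rats. All exposed lungs lay above all air lungs, by a log2 difference of 0.73 (SE 0.13). Fabp5 had 283, 234, 260, 262 and 262 CPM in MWCNT_180 rats, against 108.97 to 224 CPM with a median of 144 in air_180 rats (log2 0.75, SE 0.15). The lowest exposed lung lay just above the highest air lung. At 22.5, 45 and 90 mg/m3 Lgals3 stood at 0.52, 0.32 and 0.41 and Fabp5 at 0.33, 0.33 and 0.46 on the log2 scale (SE 0.12 to 0.18), and in each of these runs the ranges overlapped for both genes. The Lgals3 call at 90 mg/m3 was lost in 8 of 53 fits that left out a library and in 3 of 9 other settings. In 1 further setting its sign turned.

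Gpnmb, Trem2 and Cd9, which help to define the scar-associated state in human and mouse tissue, had log2 differences of at most 0.45 at any dose. Gpnmb encodes a lysosomal and cell-surface glycoprotein of phagocytes. It had 1072, 935, 1012, 1085 and 943 CPM in MWCNT_180 rats, against a lowest of 502, a median of 685 and a highest of 1152 CPM in air_180 rats. The highest lung of that run was an air lung, and the log2 difference was 0.45 (SE 0.17). Gpnmb was just past the adjusted p threshold of 0.05 there, and it fell short of it in 35 of 53 fits that left out a library and in 4 of 9 other settings. In the lower runs its log2 difference lay between -0.04 and 0.15, with overlapping groups.

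Trem2, a receptor for lipids and apolipoproteins on macrophages and microglia, had 56.3, 45.2, 46.7, 52.6 and 43.9 CPM in MWCNT_180 rats, against a lowest of 22.2, a median of 40.1 and a highest of 62.4 CPM in air_180 rats. The exposed lungs all fell inside the air range, and the log2 difference was 0.30 (SE 0.21). At the other doses it ran from -0.03 (SE 0.22) at 90 mg/m3 to 0.31 (SE 0.20) at 22.5 mg/m3. Trem2 was called in none of the 5 runs. Cd9, a tetraspanin that organises membrane proteins, went the other way. It had 622, 569, 581, 545 and 545 CPM in MWCNT_180 rats, against a lowest of 629, a median of 690 and a highest of 718 CPM in air_180 rats, a log2 difference of -0.27 (SE 0.07). Every exposed lung was below every air lung at 180 and at 90 mg/m3, where the difference was -0.22 (SE 0.07). The Cd9 call at 90 mg/m3 was lost in 4 of 53 fits that left out a library and in 1 of 9 other settings. Endothelial genes fell in the run at 180 mg/m3 too, 7 of 10 by edgeR's quasi-likelihood test, against 10.9% of all genes. Their part in the Cd9 values was not tested.

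**Figure D2:**
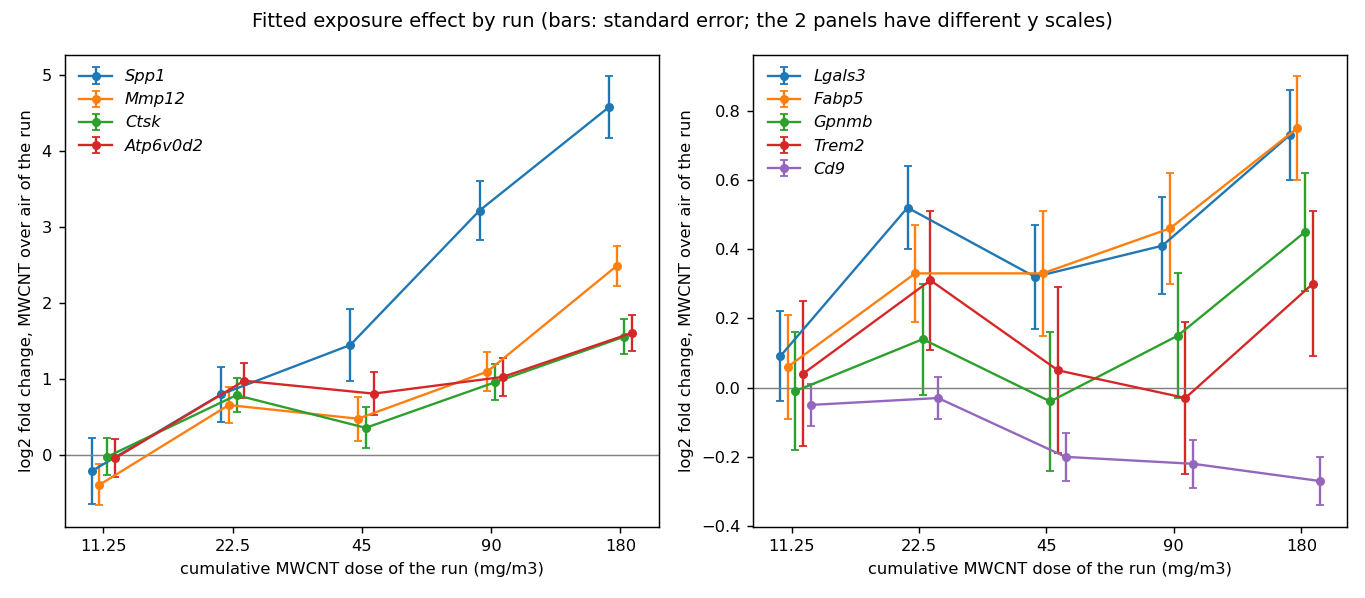
Fitted log2 fold change of each gene, MWCNT over the air rats of the same run, against the cumulative dose in mg/m3 (bars, standard error). The left panel, with a larger y scale, holds Spp1, Mmp12, Ctsk and Atp6v0d2 and the right panel the other genes. Spp1 reaches 4.58 at 180 mg/m3, whereas Cd9 declines to -0.27.

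By edgeR's quasi-likelihood test with Benjamini-Hochberg adjustment over all genes, 0, 3, 0, 5 and 7 of the 9 genes were called higher at 11.25, 22.5, 45, 90 and 180 mg/m3. The share of all 15995 genes called higher was 0.025%, 5.18%, 3.32%, 6.82% and 12% in the same runs. Those called lower numbered 0, 0, 0, 1 and 1, in each case Cd9, against 0%, 1.62%, 2.09%, 4.28% and 10.9% of all genes. At an unadjusted p under 0.05, 0 genes of the set passed at 11.25 mg/m3 and 4 at 45 mg/m3, and DESeq2 called 0 in both runs. All exposed lungs lay above all air lungs in 0, 0, 2, 4 and 6 of the 9 genes from the lowest to the highest dose, against 0.35%, 2.15%, 9.23%, 8.82% and 7.8% of all genes. They lay below all air lungs in 0, 0, 0, 1 and 1, again Cd9, against 0.344%, 0.219%, 3.84%, 2.84% and 5.16% of all genes. The median log2 fold change of the 9 genes was -0.02, 0.52, 0.33, 0.46 and 0.75, beside medians over all genes between -0.0066 and 0.0065. The genes were picked with these differences in view, so nothing is read from the counts.

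The air lungs, which stand on 1 side of every difference used in the choice of genes, also varied between runs. In the 27 air libraries Spp1 ran from 2.01 to 26 CPM, with means from 4.38 CPM in air_180 to 11.1 CPM in air_022, a ratio of 2.53. Mmp12 means ran from 11 CPM in air_180 to 21 CPM in air_045. The mean was lowest in air_180 for 7 of the 9 genes, the run in which the fold changes over air were largest. For a difference among the 5 air groups, edgeR called 0 of the 9 genes, against 7.11% of all genes, and at an unadjusted p under 0.05, 2 of the 9 passed, while DESeq2 called 0 and limma voom called 5. Nothing is read from these counts, since the air levels are part of the differences by which the genes were chosen. With all air rats pooled as a single control, the Gpnmb difference at 180 mg/m3 was 0.26 (log2).

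Within a group the genes rose and fell together from rat to rat, and differences between groups do not enter this measure. In air_180, replicate 6 had the highest level of every gene but Cd9 and replicate 4 the lowest. Deviations of log2 CPM from the group mean were correlated over the 53 libraries, with 100000 permutations within groups. Of the 36 pairs of genes, 34 passed at an adjusted p under 0.05, all of them positive. As a background, r of Cd9 with all other genes had a 95th percentile of 0.70, and 0 of the other 8 genes of the set lay above it. For the other genes that percentile ran from 0.31 (Spp1) to 0.56 (Fabp5), and 6 to 8 of the other 8 genes lay above it. Passing the permutation test was a lower bar: Ctsk and Cd9 passed at r = 0.29, against a percentile of 0.41 for Ctsk. The share of all gene pairs that would pass was not computed. The pairs of Cd9 with Spp1 (r = 0.16, rho = 0.27) and with Mmp12 (r = 0.21, rho = 0.23) did not pass, with permutation adjusted p of 0.33 and 0.14 for r. Ctsk and Gpnmb were the closest pair (r = 0.95, rho = 0.93), although their log2 differences at 180 mg/m3 were 1.56 and 0.45. Trem2 and Lgals3 followed (r = 0.93, rho = 0.94). Spp1 went most with Mmp12 (r = 0.76, rho = 0.82), and r was 0.85 without the 2 libraries farthest from the median. For these 3 pairs the permutation p was 1e-05 for both measures, the smallest that 100000 permutations can give, or 1.7e-05 for r after adjustment over the 36 pairs.

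**Figure D3:**
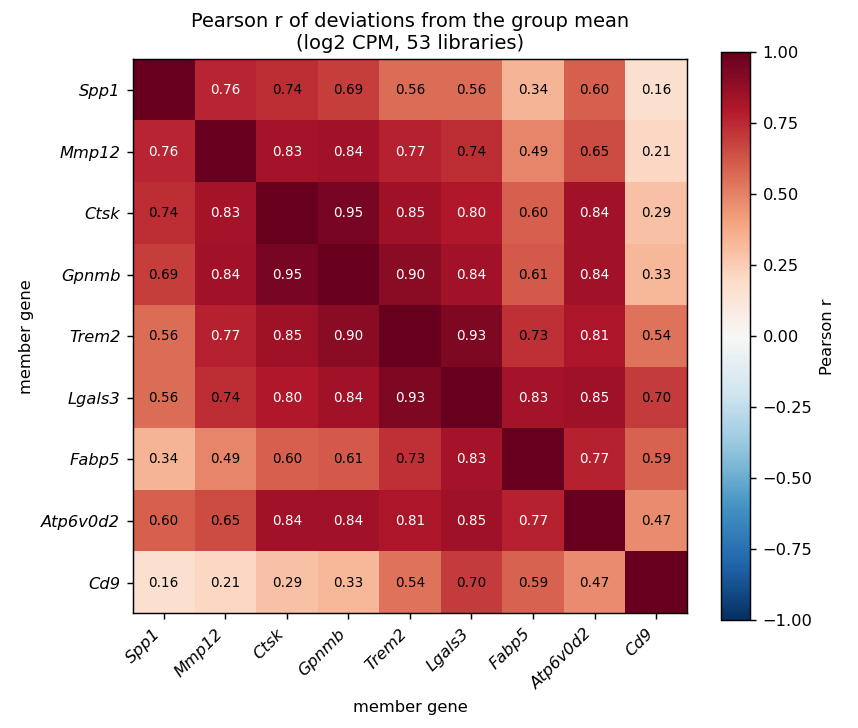
Pearson r of deviations of log2 CPM from the group mean for each pair of the 9 genes over 53 libraries, on a colour scale from -1 to 1. The Ctsk and Gpnmb cell holds 0.95, and the weakest cells, between 0.16 and 0.33, lie in the Cd9 row against Spp1, Mmp12, Ctsk and Gpnmb.

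In the 27 air libraries alone 31 of the 36 pairs passed, and without the run at 180 mg/m3 32 passed. The first axis of this variation held 72% of the variance of the 9 genes, with the lowest loadings for Cd9 (0.21) and Spp1 (0.28). Among the 14726 other genes that averaged 1 CPM or more, Mmp12 was the gene nearest to Spp1 by r, Gpnmb nearest to Mmp12 and to Ctsk, Ctsk nearest to Gpnmb, and Lgals3 nearest to Trem2. The nearest gene lay outside the set for Lgals3 (Ctsb, r = 0.94), Fabp5 (Fetub, r = 0.94), Atp6v0d2 (Ccl9, r = 0.88) and Cd9 (S100a6, r = 0.92). The macrophage gene Cd68 had r = 0.66 with Spp1, 0.90 with Gpnmb and 0.36 with Cd9. Other macrophage genes had lower r with Spp1 and Gpnmb, 0.15 and 0.28 for the complement gene C1qb and 0.21 and 0.28 for Csf1r. With Cd9, Csf1r had r = -0.37. Cd9 went more with C1qb and the type 2 cell gene Sftpc (r = 0.72 with each), just past its 95th percentile over all genes of 0.70. The endothelial gene Pecam1 (0.51) and the club cell gene Scgb1a1 (0.50) lay below that percentile. The alveolar macrophage gene Abcg1, a lipid exporter, reached r = 0.92 with Gpnmb, and Sftpc reached r = 0.86 with Fabp5 and 0.20 with Spp1. Library depth went with none of them, at r from -0.23 to 0.01. The number of macrophages or type 2 cells sampled in each piece of lung was not measured, and its part in these correlations was not tested.

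**Figure D4:**
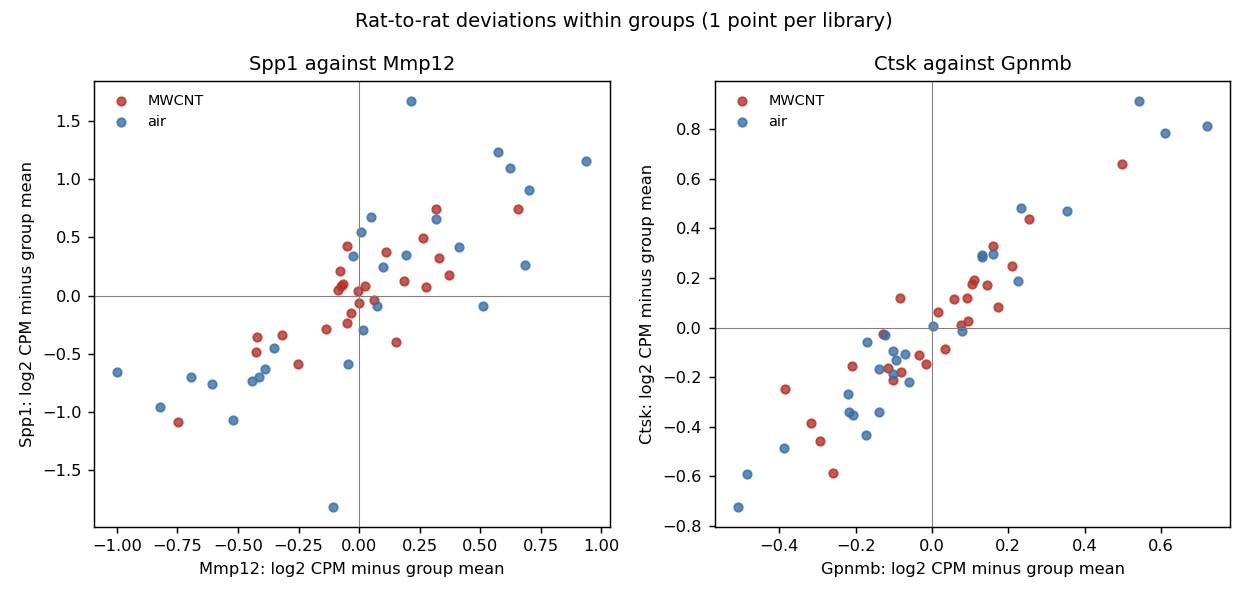
Deviations from the group mean in log2 CPM, 1 point per library, with MWCNT rats in red and air rats in blue. The left panel sets Spp1 (y axis) against Mmp12 (x axis), r = 0.76, and the right panel sets Ctsk against Gpnmb, r = 0.95.

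A further likeness took in exposure as well. Log2 CPM minus the mean of the run's own air rats was compared with that of Spp1 over the 53 libraries, as a description. Mmp12 ranked first among 14726 genes (r = 0.93), Ctsk 11th (0.89) and Atp6v0d2 33rd (0.86), whereas Gpnmb ranked 726th and Cd9 13673rd (-0.56). The genes outside the set nearest to Spp1 were Slc26a4 (pendrin, an anion exchanger), Rab7b (a small GTPase of endosomes), Fcgr2b (an inhibitory Fc receptor) and Nr4a3 (an orphan nuclear receptor), with r from 0.91 to 0.93. Cyp51 (sterol synthesis), Retnla (a resistin-like secreted protein), Ptafr (the receptor for platelet-activating factor) and Aoc1 (a histamine-degrading oxidase) followed at 0.90. Retnla averaged 137 CPM in MWCNT_180 and 13.3 CPM in air_180, and Slc26a4 averaged 65.5 CPM and 6.42 CPM in the same groups.

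The partners of these genes in their pathways were read from 10 lists that leave out the 9 genes. Of 150 tested partner genes, 33 were called higher and 18 lower at 180 mg/m3, beside 12% and 10.9% of all genes. All adjusted p-values that follow are from edgeR's quasi-likelihood test over all genes at 180 mg/m3, with n = 5 MWCNT and 6 air rats, and levels are mean CPM ± SD.

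Of 10 osteopontin receptor genes, 2 rose and 1 fell, with a list median of -0.06 (log2). Cd44, the hyaluronan and osteopontin receptor, rose to 318 ± 17.1 CPM in MWCNT_180 rats, against 248 ± 22.4 CPM in air_180 rats (log2 0.35, SE 0.07, adjusted p = 0.00021), and it was above the air mean in 5 of 5 rats. The integrin chain Itgav rose by less (0.25, adjusted p = 0.0037), and its partner Itgb5 fell (-0.27, adjusted p = 0.00024). Itgb1 (-0.07), Itgb3 (-0.27), Itga4 (0.42) and Itga9 (-0.04) did not pass. Of the other phosphoproteins of the osteopontin family, Dmp1, Mepe and Dspp had at most 9, 1 and 1 counts in any library and were not tested.

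Of 14 genes around TREM2, 4 rose and 1 fell, with a median of 0.03. The largest rises were in its relatives Trem3 (14.1 ± 2.08 CPM in MWCNT_180 rats and 7.55 ± 1.46 CPM in air_180 rats, log2 0.89) and Trem1 (0.75), genes of activating receptors on neutrophils and monocytes. The other rises, named after their values were seen, were in the phosphatase gene Inpp5d (0.22) and the ligand Clu (0.20). The ligand Apoe fell (-0.34, adjusted p = 0.044), a call lost in 4 of 9 other settings. The adaptor Tyrobp (0.15) and the kinase Syk (0.04) did not pass. Neutrophil genes moved in the same run, with 7 of 10 higher and a summed level of 327 to 412 CPM in MWCNT_180 rats against 146.7 to 236.5 CPM in air_180 rats, and their part in the Trem1 and Trem3 values was not tested.

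Of 32 other lipid-associated macrophage genes, 12 rose and 4 fell at 180 mg/m3, with a median of 0.15. The cystine transporter Slc7a11 rose to 3.76 ± 0.714 CPM in MWCNT_180 rats, against 0.941 ± 0.235 CPM in air_180 rats (log2 1.98, SE 0.22, adjusted p = 4.6e-10). It had also risen at 22.5 mg/m3 (1.27), 45 mg/m3 (1.18) and 90 mg/m3 (1.84). The interleukin-1 receptor antagonist Il1rn (1.02), the integrin Itgax (0.85), the cystatin Cst7 (0.84) and Cd68 (0.67) rose as well. The 4 that fell, named after their values were seen, were Apoe, the lipid droplet gene Plin2 (-0.24), the glucan receptor Clec7a (-0.60) and the clearance receptor Axl (-0.37). Lpl, the lipoprotein lipase, had a value of 0.05 and did not pass. In the runs at 11.25, 22.5, 45 and 90 mg/m3, 0, 6, 3 and 6 genes of this list were called higher and 0, 0, 1 and 3 lower.

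Of 20 tested osteoclast and cell-fusion genes, 3 rose and 2 fell. Tnfrsf11a, the receptor RANK, rose to 28.1 ± 2.69 CPM in MWCNT_180 rats, against 15 ± 0.755 CPM in air_180 rats (log2 0.90, SE 0.08, adjusted p = 6.7e-12), and its rise was also called at 22.5 (0.40), 45 (0.51) and 90 mg/m3 (0.54). The macrophage growth factor Csf1 rose (0.79, adjusted p = 1.2e-11), as did Oscar (0.37, adjusted p = 0.023), a co-receptor of osteoclasts. The receptor for that growth factor, Csf1r, had a value of -0.06, the acid phosphatase Acp5 -0.04 and the master regulator Nfatc1 -0.08, and none of these passed. The fusion gene Dcstamp had 0 counts in all analysed libraries, and the RANK ligand gene Tnfsf11 at most 1. Of 19 proton pump genes, 2 rose (Atp6v1b2, 0.37, and Atp6v0a1, 0.24) and 1 fell (Atp6v1c2, -0.35). Atp6v0d1, which encodes the widely used form of the subunit that Atp6v0d2 replaces, stood at 177 ± 9.25 CPM in MWCNT_180 rats and 185 ± 13.7 CPM in air_180 rats and did not pass.

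Of 16 metalloproteinase and inhibitor genes, 3 rose and 1 fell. The inhibitor Timp1 rose to 65.2 ± 9.23 CPM in MWCNT_180 rats, against 35.7 ± 3.87 CPM in air_180 rats (log2 0.86, adjusted p = 5e-08), and the neutrophil proteases Mmp25 (0.97) and Mmp8 (0.52) rose. Mmp9 (0.24) and Mmp14 (0.14) did not pass. Of 15 cathepsin and cystatin genes, 7 rose and 1 fell, led by Cst7 (0.84), Ctse (0.59) and Ctsz (0.54). Of 8 galectin genes, 2 rose (Lgals3bp, 0.43, and Lgals8, 0.21) and 1 fell (Lgalsl, -0.19), and Lgals1 (0.25, adjusted p = 0.072) did not pass. Of 3 tested relatives of Fabp5 none was called, and Fabp4 had a value of -0.25. Of 26 tetraspanin genes 2 rose, Igsf8 (a tetraspanin partner, 0.50) and the leukocyte gene Cd53 (0.37), and 7 fell, among them Tspan18 (-0.35) and the close relative of Cd9, Cd81 (-0.23, adjusted p = 0.00062).

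**Figure D5:**
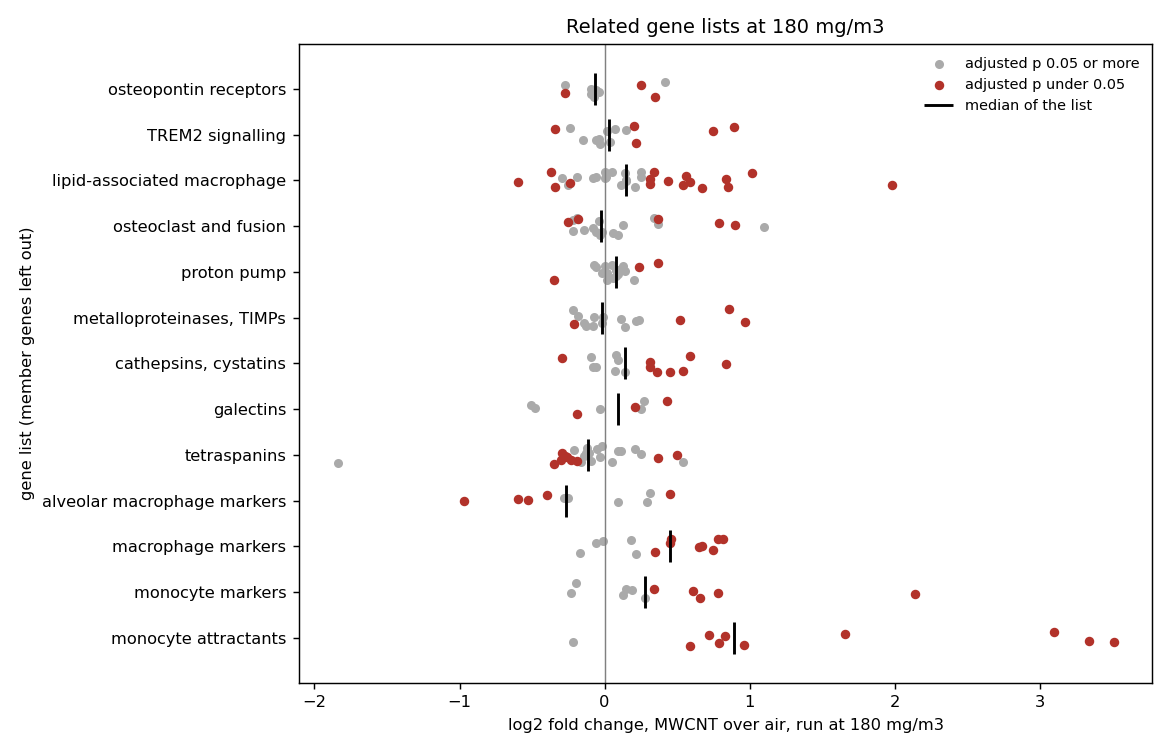
Log2 fold change at 180 mg/m3, MWCNT over air, of each tested gene in 13 lists that leave out the 9 genes. Red points have an adjusted p under 0.05, grey points do not, and the black bar is the list median. Medians lie between -0.26 for alveolar macrophage markers and 0.89 for monocyte attractants.

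Markers of macrophages and of other cells were read in the same run. Beside the counts below, 12% of all genes were called higher there and 10.9% lower. Of 13 tested macrophage genes 8 rose and 0 fell, led by C1qb (0.82), Cd14 (0.78) and C1qa (0.75). Their summed level was 22400 to 25050 CPM in MWCNT_180 rats and 16100 to 24680 CPM in air_180 rats. Nearly all of that sum was Lyz2, named after its values were seen, with 23100 ± 1090 CPM in MWCNT_180 and 18000 ± 2990 CPM in air_180. The sum therefore says little about the other macrophage genes. Of 10 alveolar macrophage genes 1 rose and 4 fell, including Krt79 (-0.97), Abcg1 (-0.60) and the regulator Pparg (-0.53). Their summed level was 680.4 to 786 CPM in MWCNT_180 rats and 778 to 1114 CPM in air_180 rats, and Marco was not tested, with at most 2 counts in any library. Of 11 monocyte genes 5 rose and 0 fell, with a sum of 2550 to 2846 CPM in MWCNT_180 rats against 2037 to 2310 CPM in air_180 rats. Most of that sum was Fn1, named after its values were seen, with 2310 ± 153 CPM in MWCNT_180 and 1820 ± 110 CPM in air_180. The monocyte sum therefore says little about the other monocyte genes. Of 8 dendritic cell genes 5 rose and 0 fell, with a sum of 209.6 to 241 CPM in MWCNT_180 rats against 139.8 to 172.5 CPM in air_180 rats. The monocyte attractants rose in 9 of 10 genes, with Ccl2 at 30 ± 6.03 CPM in MWCNT_180 rats and 2.56 ± 1.45 CPM in air_180 rats. Of 10 alveolar type 2 genes 4 rose and 0 fell, and they summed to 30890 to 32760 CPM in MWCNT_180 rats and 23480 to 30110 CPM in air_180 rats. Endothelial and alveolar type 1 genes went the other way. Of 10 endothelial genes 0 rose and 7 fell, with a median of -0.29 and a sum of 3975 to 4370 CPM in MWCNT_180 rats against 4550 to 5154 CPM in air_180 rats. Of 8 alveolar type 1 genes 0 rose and 3 fell, with a sum of 6862 to 6986 CPM in MWCNT_180 rats against 7915 to 8568 CPM in air_180 rats. Of 9 fibroblast genes 0 rose and 2 fell, and of 10 club and ciliated cell genes 3 rose and 3 fell. Of 5 platelet genes 1 rose and 1 fell, of 13 liver genes and of 10 muscle genes 2 rose in each, and of 6 red cell genes none was called. The part of these cell markers in the levels of Spp1 and the other 8 genes was not tested. Adgre1 and Ccr2 were not analysed here.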

How the data were processed

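The authors deposited raw read counts per gene symbol for 60 lung libraries, made from total RNA with a stranded mRNA kit and 12 PCR cycles, per the labels' protocols. The submitters' processing notes name bcl2fastq 2.19, Trimmomatic 0.35, HISAT2 2.1.0, Cufflinks, SAMtools 1.8 and HTSeq 0.11.2. Not given in the sources used here are the genome build, the annotation, the strand setting and the treatment of reads shared between similar genes. Promoters therefore come from RefSeq on GRCr8 and no gene lengths were used: levels of different genes are not compared. The labels write 2 doses without their decimals, and the protocol's values are used.

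Groups came from the labels, and the 7 libraries with an outlier label were left out. Counts were fitted in R 4.3.3 with edgeR 4.0.16 (TMM scaling, filterByExpr with a minimum count of 10, a robust quasi-likelihood model of all 10 groups), and p-values were two-sided and adjusted by Benjamini-Hochberg over 15995 genes, which held 99.932% of the counts. Each exposed group was set against the air group of its run. The common biological coefficient of variation was 0.107. The SE is the log2 fold change divided by the square root of F. CPM is the count over the library total, per 1000000. The scripts were tested on simulated data. No 2 libraries of a group were duplicates (smallest chi-square per degree of freedom 2.6). Reads carry no molecular identifiers, so counts give counting error only as a lower limit.

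The 9 genes, the lists, the naming rule and the motifs were chosen with earlier results of these data known. Named genes are the 9, up to 3 called genes of each list with the largest change at 180 mg/m3 and a mean of at least 1 CPM, 28 fixed pathway genes, and the 8 genes most like Spp1. Alternatives were all 60 libraries, 57 libraries without those with over 5% liver counts, DESeq2 1.42.0 and its size factors, no filter, 1 CPM in 10 libraries, limma 3.58.1 voom with quality weights, each run alone, all air as a single control, and leaving out each library.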

Additional observations from a re-analysis of the deposited data

Results flagged for a closer look

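In a group of 4 to 10 rats, a rat whose gap to its nearest neighbour takes most of the group's range stands apart, which chance alone gives in about 1 in 20 groups. For the 9 genes this was met in 10 of 81 groups checked. Replicate 6 of air_180 stood high in Ctsk (28 CPM), Gpnmb (1152 CPM) and Atp6v0d2 (15 CPM), and replicate 4 of air_022 in Ctsk (37.1 CPM) and Gpnmb (1215 CPM). Spp1 was low in MWCNT_090 replicate 1 (58.4 CPM) and high in air_090 replicate 3 (16 CPM). Mmp12 was high in MWCNT_022 replicate 4 (36.8 CPM), Atp6v0d2 low in MWCNT_045 replicate 2 (12.7 CPM) and Cd9 low in air_180 replicate 5 (629 CPM). Among the other named genes at 180 mg/m3 it was met in 12 of 164 groups. In MWCNT_180 replicate 2 these were Trem3 (17.8 CPM), Tnfrsf11a (23.5 CPM), Cd53 (134 CPM) and Krt79 (23.2 CPM), and in replicate 5 Clec9a (11.2 CPM). In air_180 they were Apoe (635 CPM) and Ccl7 (2.62 CPM) in replicate 1, S100a9 (97.9 CPM) in replicate 3, Tf (111.46 CPM) in replicate 5, and Trem1 (11.5 CPM), Oscar (7.2 CPM) and Sftpa1 (8704 CPM) in replicate 6.

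The MWCNT effect differed among the 5 runs in 787 of 15995 genes by edgeR's quasi-likelihood test with Benjamini-Hochberg adjustment, and dose and run cannot be told apart in that test. Apart from the fixed pathway genes, the genes below were named for a large change at 180 mg/m3. That choice favours a difference among runs, so nothing is read from how many met this criterion. It was met, with these adjusted p-values, by the chemokines Ccl2 (1.5e-06), Ccl7 (0.00035) and Ccl9 (0.02). Among partner genes it was met by Csf1 (0.00037), Tnfrsf11a (0.00085), Timp1 (0.02), Mmp25 (0.025), Slc7a11 (0.0011), Il1rn (2.6e-06), Itgax (0.00013), Cst7 (0.014), Ctse (0.0064), Lgals3bp (0.021), Igsf8 (0.0018), Cd53 (0.00049), Trem1 (0.0038) and Trem3 (0.0048). Among macrophage and monocyte markers it was met by C1qa (0.0038), C1qb (0.00089), Cd14 (0.00028), Cx3cr1 (0.0018) and Krt79 (0.049). Among markers of other cells it was met by Lcn2 (0.0013), Il1r2 (0.0013), Xcr1 (0.00042), Clec9a (1.1e-06), Flt3 (0.034), Cav1 (0.00046), Sox17 (0.022), Eln (0.0018) and Postn (0.015). At 180 mg/m3 the log2 differences behind these were 3.51 for Ccl2, 1.02 for Il1rn and 1.15 for Clec9a, each in 5 of 5 exposed rats.

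Of the 7 libraries with an outlier label, 2 exceeded every analysed air rat of their own run in 7 of the 9 genes, 1 did so in 1 gene and 4 in none. MWCNT_180 replicate 1 had 178 CPM of Spp1, 80.5 of Mmp12, 68 of Ctsk, 1200 of Gpnmb, 563 of Lgals3, 273 of Fabp5 and 22.1 of Atp6v0d2, which is 7 of the 9 genes. The air library air_045 replicate 3, with 5.19 counts in units of 1000000, exceeded the 3 analysed air_045 rats in 7 of the 9 genes. It had 15.8 CPM of Spp1, 42 of Ctsk, 117 of Trem2, 558 of Lgals3, 281 of Fabp5, 18.9 of Atp6v0d2 and 816 of Cd9. The air library air_045 replicate 6 exceeded them in Spp1 alone, with 21.5 CPM. MWCNT_011 replicate 2, MWCNT_090 replicates 5 and 6 and air_045 replicate 5 exceeded the air rats of their run in 0 of the 9 genes.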

How the results depend on the processing

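No paired analysis was possible because the labels give no replicate number that MWCNT and air rats share. Across 9 alternative settings and 53 fits without 1 library each, the log2 difference of the 9 genes turned sign past a call once: Lgals3 at 90 mg/m3 was -0.08 with all 60 libraries, in which 2 liver-profile libraries enter MWCNT_090. With all 60, the number of the 9 genes called higher was 0 at 22.5 and 2 at 90 mg/m3, and of the partner genes 9 were called higher and 1 lower at 180 mg/m3, against 33 and 18. At 22.5 mg/m3 the count was 6, not 3, with all air rats as a single control. At 45 mg/m3, where it was 0, it was 2 under voom, 2 with each run fitted alone and 6 with a single air control. Among the air groups 0 of the 9 genes differed, against 1 in the 57-library fit and 5 under voom. Leaving out single libraries gave 2 to 4 genes at 22.5 mg/m3, 0 to 1 at 45, 4 to 6 at 90 and 6 to 7 at 180 mg/m3, with 29 to 37 partner genes higher and 16 to 21 lower. The 45 mg/m3 count became 1 without air_022 replicate 2, 3 or 5, air_090 replicate 3 or air_180 replicate 6. Beyond the liver-profile libraries and the smaller number of libraries, the cause was not tested. The run at 45 mg/m3 rests on 3 air rats and the run at 90 mg/m3 on 4 exposed rats.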

Other observations

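The 3 libraries in which liver genes took 22.4% to 26.8% of the counts gave the 9 genes a background from another tissue. MWCNT_090 replicates 5 and 6 and air_045 replicate 5 had 1.37, 1.05 and 0.494 CPM of Spp1 and 8.93, 3.96 and 2.31 CPM of Cd9. Trem2 stood at 0.42, 0 and 0.0823 CPM and Atp6v0d2 at 0.105, 0.35 and 0 CPM in the same libraries. Fabp5 kept the highest share of its lung level, with 84.2, 75 and 38 CPM, against 108.97 to 224 CPM in air_180 lungs. The labels call these libraries lung and mark them as outliers.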
